A study of Mus musculus with 8 samples.

Results

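The genes described here are 41 genes of the interferon response and of antigen presentation in mouse thyroid follicular cell organoids (TFCOs), thyroid tissue and lung tissue. They were picked by symbol from a given list of names, and each of the 41 had a row among the 16119 genes of the table and passed the filter on low values, as did 14703 genes in all. The samples came from Wild type C57BL/6 adult mice, which the methods describe as female for the animals that gave the organoids. No treatment was applied. TFCOs were grown from dissociated thyroid in basement membrane extract, in a medium with R-spondin 3, A83-01, FSK (forskolin), EGF, FGF10, B27, N-acetylcysteine and nicotinamide, in which the labels list no interferon. The 8 libraries came from TFCOs of the lines mThy14 and mThy16, each at early and at late passage, from 2 samples of thyroid tissue and from 2 samples of lung tissue. TFCOs hold follicular cells expanded in culture, whereas the tissues hold blood vessels, stroma and blood cells too, and lung served as an unrelated tissue.

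Interferons bind receptors on the cell surface, and the kinases JAK1 and TYK2 then activate STAT2, which acts with IRF9 to switch on genes with interferon-stimulated response elements. Interferon gamma acts through another element, the gamma-activated sequence, and raises IRF1. Among the genes switched on are antiviral effectors, the ISG15 modifier, the immunoproteasome, and the TAP transporter, tapasin and beta-2 microglobulin that load and carry peptides on class I molecules of every nucleated cell. Class II presentation, with the invariant chain CD74 and the protease cathepsin S, is known above all from dendritic cells, macrophages and B cells, and is switched on by CIITA. Thyroid follicular cells are known to take up class I and class II presentation when exposed to interferon gamma in thyroid autoimmunity.

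Promoters of 6 of these genes are shown because they carry, within the 250 bases before the start in RefSeq (GRCm38.p6), a motif that the interferon-activated factors read, and because the genes belong to those followed most closely in the results. Capitals mark the motif. In the first set, the motif is the core of the interferon-stimulated response element, written as GAAA, any 2 bases, GAAA on either strand. ISG15 lies at chr4:156200819-156201068, minus strand, and 3 overlapping copies of the pair start 78 bases before its start. STAT2 lies at chr10:128270248-128270497, plus strand, with the motif read on the opposite strand. B2M lies at chr2:122147437-122147686, plus strand. CTSS lies at chr3:95526536-95526785, plus strand, and its motif begins 21 bases before the start.
ISG15: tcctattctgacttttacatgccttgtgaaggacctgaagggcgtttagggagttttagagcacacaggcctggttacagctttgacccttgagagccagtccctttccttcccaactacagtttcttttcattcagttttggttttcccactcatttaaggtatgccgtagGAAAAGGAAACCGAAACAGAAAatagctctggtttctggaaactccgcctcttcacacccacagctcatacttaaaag
STAT2: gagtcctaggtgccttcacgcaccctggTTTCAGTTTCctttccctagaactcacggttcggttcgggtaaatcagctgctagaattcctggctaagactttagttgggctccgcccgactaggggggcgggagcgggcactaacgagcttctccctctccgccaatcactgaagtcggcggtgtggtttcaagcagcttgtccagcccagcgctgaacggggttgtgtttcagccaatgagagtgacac
B2M: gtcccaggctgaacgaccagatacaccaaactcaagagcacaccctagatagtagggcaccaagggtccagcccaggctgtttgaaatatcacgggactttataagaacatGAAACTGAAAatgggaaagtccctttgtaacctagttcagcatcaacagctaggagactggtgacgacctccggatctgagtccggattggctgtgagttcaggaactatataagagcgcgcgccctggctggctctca
CTSS: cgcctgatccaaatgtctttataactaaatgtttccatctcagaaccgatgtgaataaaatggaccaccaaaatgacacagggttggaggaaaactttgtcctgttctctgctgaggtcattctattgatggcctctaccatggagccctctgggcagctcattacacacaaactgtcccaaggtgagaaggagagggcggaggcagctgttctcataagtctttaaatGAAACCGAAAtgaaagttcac

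In the second set, the capitals mark the gamma-activated sequence, TTCNNNGAA, whose letters read the same on both strands. IRF1 lies at chr11:53769764-53770013, plus strand, and PSMB8 at chr17:34197945-34198194, plus strand.
IRF1: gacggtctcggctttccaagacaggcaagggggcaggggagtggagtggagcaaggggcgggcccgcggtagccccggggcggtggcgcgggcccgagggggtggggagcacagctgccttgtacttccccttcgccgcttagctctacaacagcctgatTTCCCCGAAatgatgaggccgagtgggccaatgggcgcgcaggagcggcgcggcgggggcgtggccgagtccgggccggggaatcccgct
PSMB8: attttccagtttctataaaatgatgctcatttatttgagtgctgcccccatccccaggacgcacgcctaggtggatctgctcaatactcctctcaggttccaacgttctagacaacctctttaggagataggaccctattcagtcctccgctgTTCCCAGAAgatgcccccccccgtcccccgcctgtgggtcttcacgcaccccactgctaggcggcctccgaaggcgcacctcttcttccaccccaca

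Among the 30 of 41 genes with a promoter in that table, taken as 250 bases before and 50 after the start, 12 (40%) held the GAAA pair, against 3.993% of all 27025 genes. The gamma-activated sequence was held by 7 of the 30 (23.33%), against 9.554% of all genes. In BST2 the 2 motifs overlapped. A match describes the letters in the window and is no evidence of binding.

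Marker genes were set beside the labels. All 4 TFCO libraries carried the follicular factors PAX8 (3925 to 8273 in the TFCOs) and the epithelial marker EPCAM (5497 to 11057). The follicular product TG stood at 9532 to 126441 in TFCOs, 1526002 and 2175016 in the thyroids and 27.6 and 263 in the lungs. The lungs carried the surfactant gene SFTPC at 241128 and 180943, against 5.53 to 266 in the other libraries. Other lung markers were less specific: SFTPB stood at 28177 in early mThy14 and 1475 to 3031 in the other TFCOs, against 56914 and 34374 in the lungs, and AGER at 2958 to 19366 in TFCOs and 20265 and 15011 in the thyroids, against 57060 and 23371. Normalized counts are reads per gene divided by 1 size factor per library, and 9755081 to 16904865 reads per library fell on genes. Stromal markers were low in the TFCOs. LUM was at 0 in all 4, which allows up to 2.97 to 4.22 normalized counts (3 reads), COL3A1 stood at 8.91 to 26.7 against 9519 and 10403 in the thyroids, and COL1A1 at 44.8 to 155 against 7318 and 3048. The libraries also fell into 2 sets that cross the groups. Some 44 genes were at 0 in thyroid tissue 2 and both lungs but at 50 or more in the TFCOs and thyroid tissue 1, and 16 genes showed the opposite; none of the 41 genes was among these. The labels do not say what the sets are. In the text, the first library set is the 4 TFCOs and thyroid tissue 1, and the second is thyroid tissue 2 and both lungs. Only thyroid tissue 1 was in the set of the TFCOs, so most differences of TFCOs from tissue were partly crossed with the set, and values within a set are given beside the pooled ones.

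The 41 genes together took a small share of each library. They held 0.0594% and 0.0634% of all normalized counts in early and late mThy14, and 0.0639% and 0.0661% in early and late mThy16. They held 0.124% in thyroid tissue 1, 0.308% in thyroid tissue 2, and 0.51% and 0.465% in the lungs. A few genes carried much of these sums. In early mThy14, TAPBP and B2M stood at 3119 and 1667 of a sum of 8139. In lung tissue 1, CD74 and B2M stood at 18246 and 14588 of a sum of 61438. The 4 TFCO shares lay closer to each other than the 2 thyroid shares did. At this level 2 to 10 of the 41 genes had fewer than 10 reads in a given TFCO library, and 4 did in thyroid tissue 1, whereas every gene had at least 10 reads in thyroid tissue 2 and in both lungs.

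**Figure D1:**
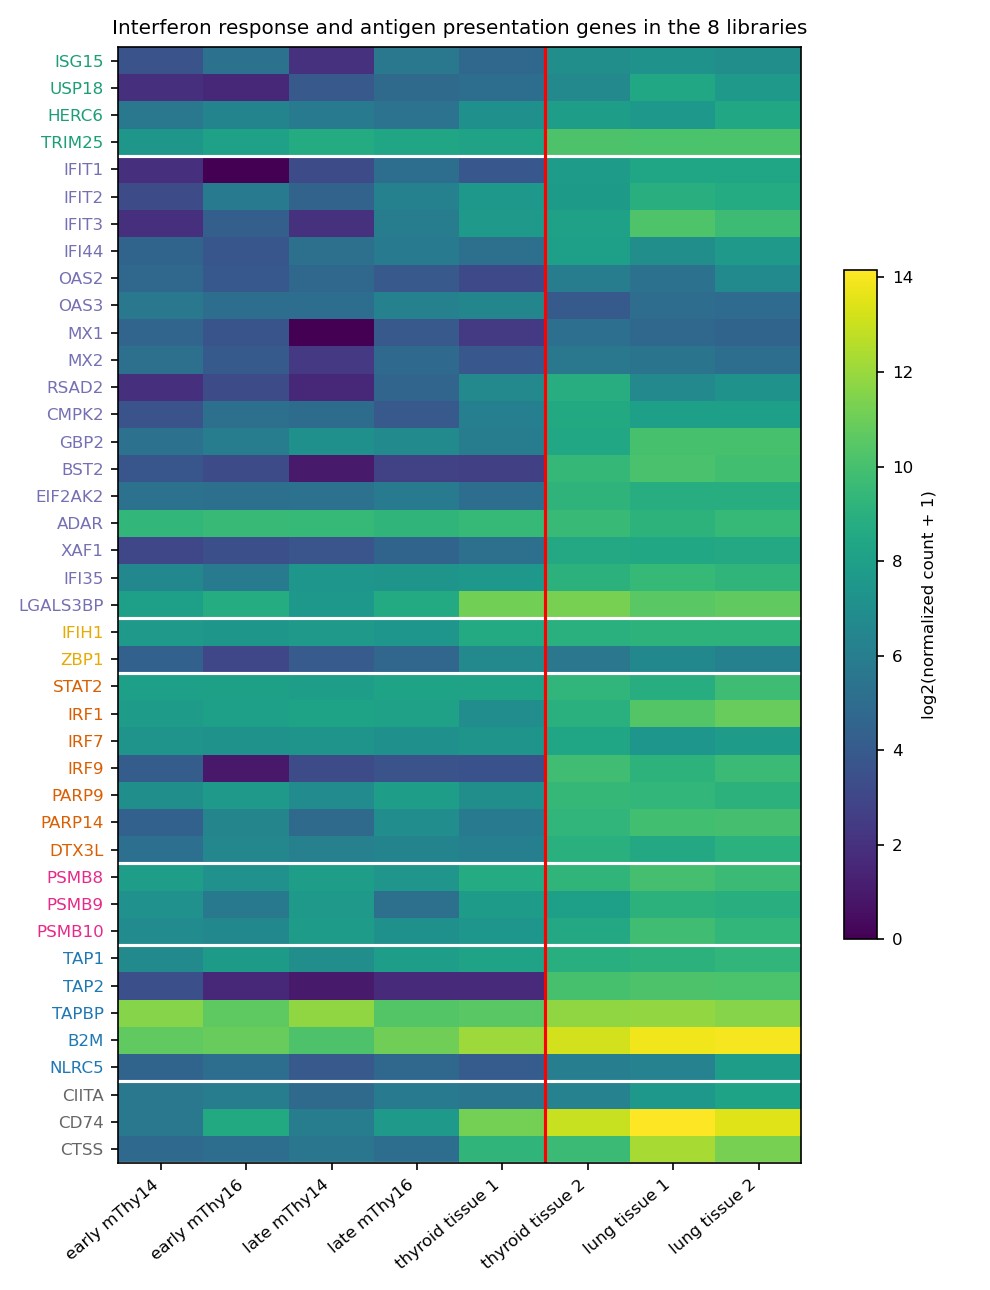
Heatmap of log2(normalized count + 1) of the 41 genes (rows, label colours and white lines mark their roles) in the 8 libraries (columns). The red line parts the first library set from the second. B2M and TAPBP were bright in every library, while TAP2, IRF9 and BST2 were dark in all 5 libraries left of the line and bright in the 3 right of it.

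Per kilobase of exon, B2M stood highest in the TFCOs, with a mean of 2000 normalized counts per kilobase (1380 to 2560 over the 4 libraries). TAPBP, the tapasin gene, followed at 662 (371 to 969), and their ranges did not overlap. LGALS3BP at 112 (65.4 to 152), CD74 at 103 (30.1 to 228) and ADAR at 84.6 (76.4 to 92.5) came next and overlapped one another. RSAD2 at 2.15, IRF9 at 1.73 and TAP2 at 0.998 stood lowest of the 40 genes with a length, with overlapping ranges. The methods describe whole-transcript libraries and the labels a 3′ tag protocol, for which a scale per length would not hold, so this order depends on which was used.

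In 33 of the 41 genes thyroid tissue 2 and both lungs were all above the 4 TFCOs and thyroid tissue 1, a pattern held by 20.3% of the 14703 genes tested. Such a gene is said here to follow the library set, whatever the size of the step between the thyroids. CTSS did so although its thyroids stood close together, at 618 and 816, and its TFCOs far under both, at 28.1 to 45.8. The name states an order of the libraries and no cause. Of the markers of other cells, 5 of 6 endothelial, 7 of 15 leukocyte and 1 of 6 stromal genes had the same order. The 2 thyroid tissues differed from each other by a median of 1.78 on the log2(normalized count + 1) scale over the 41 genes, with 39 higher in thyroid tissue 2, while the median of all genes was −0.07. Differences and folds are on this scale throughout. For 28 of the 41 genes thyroid tissue 2 exceeded thyroid tissue 1 by more than 1 log2 unit, which 22.8% of all genes did. Against thyroid tissue 1 alone, the TFCO mean differed by a median of −0.58 (12 higher, 29 lower), with a median of 0.02 over all genes. Against thyroid tissue 2 the median was −2.20, with 40 of the 41 lower. How much of the low level in TFCOs belongs to the culture and how much to the library set cannot be told apart for a gene that thyroid tissue 1 shares with the TFCOs.

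**Figure D2:**
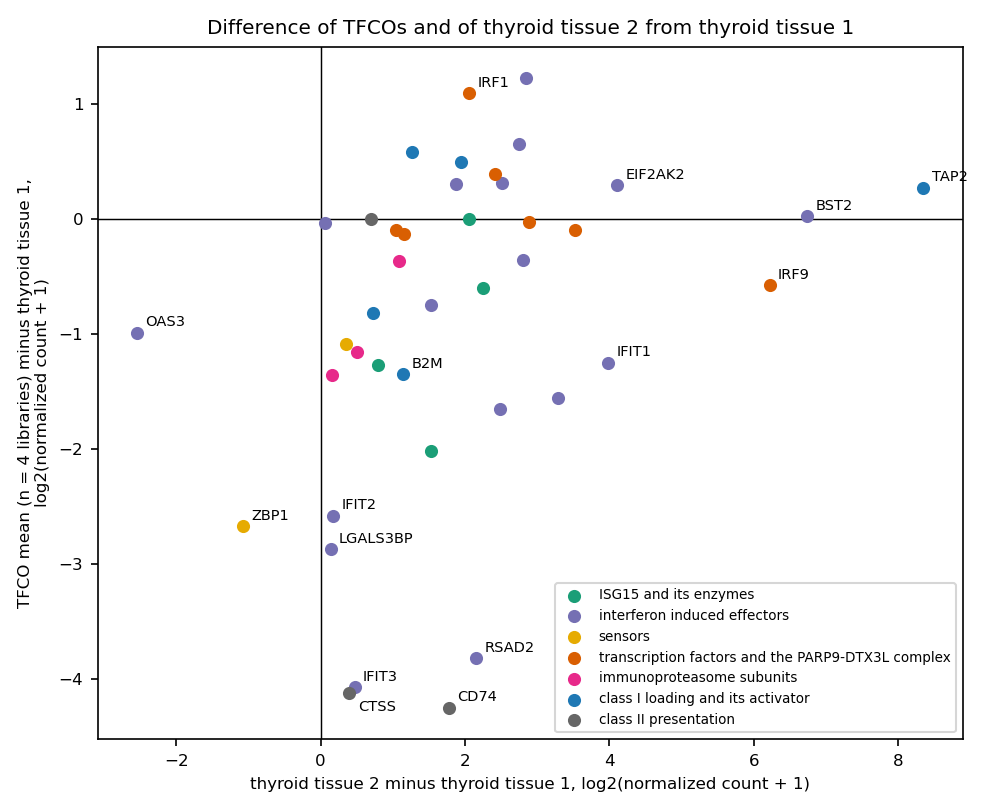
Each point is 1 of the 41 genes, coloured by role: the horizontal axis is thyroid tissue 2 minus thyroid tissue 1, and the vertical axis the mean of the 4 TFCO libraries minus thyroid tissue 1, both in log2(normalized count + 1). TAP2, BST2, IRF9 and EIF2AK2 lie far to the right near the horizontal line, and CD74, CTSS, IFIT3 and RSAD2 lie lowest.

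The ISG15 system attaches a ubiquitin-like protein to others during an interferon response. ISG15 itself read 11.2 and 3.12 in early and late mThy14, 39.6 and 49.2 in early and late mThy16, 26.1 and 128 in thyroid tissue 1 and 2, and 156 and 125 in lung tissue 1 and 2. The mThy16 TFCOs were above thyroid tissue 1 and the mThy14 TFCOs under it. USP18, the protease that removes ISG15 and damps the type I receptor, read 2.81 and 14.6 in early and late mThy14, 1.98 and 29.1 in early and late mThy16, 33.7 and 99.6 in thyroid tissue 1 and 2, and 346 and 200 in lung tissue 1 and 2. All 4 TFCOs were lower than every tissue for USP18, and both early libraries rested on 2 reads. HERC6, the ligase for ISG15 in mice, stood at 41.4 to 81.2 in the TFCOs, 135 and 234 in the thyroids and 189 and 340 in the lungs. TRIM25, a ubiquitin ligase of the RIG-I pathway, stood at 176 to 411 in the TFCOs, 282 and 1176 in the thyroids and 1129 and 1139 in the lungs; the TFCO mean equalled 99.7% of thyroid tissue 1.

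Among the antiviral effectors, IFIT3, which binds viral RNA in a complex with its relatives, read 2.81 and 3.12 in early and late mThy14, 18.8 and 63.7 in early and late mThy16, 199 and 276 in thyroid tissue 1 and 2, and 1230 and 841 in lung tissue 1 and 2. It was under every tissue in all 4 TFCOs, and its TFCO mean was 5.95% of thyroid tissue 1, although mThy16 exceeded mThy14 at both passages. Some 51.24% of the 50-base stretches of its exons also occur in the copy Ifit3b, so its reads are uncertain. IFIT2 read 8.43, 58.4, 21.9 and 74.9 in the TFCOs (early mThy14, early mThy16, late mThy14, late mThy16), 187 and 210 in the thyroids and 467 and 411 in the lungs, again with every TFCO under every tissue. IFIT1 stood at 0 to 33.5 in the TFCOs, 13.1 and 221 in the thyroids and 330 and 336 in the lungs, with no read in early mThy16.

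RSAD2, the antiviral enzyme viperin, read 2.81 and 2.08 in early and late mThy14, 8.91 and 23.5 in early and late mThy16, 102 and 456 in thyroid tissue 1 and 2, and 102 and 148 in lung tissue 1 and 2. The TFCOs were all under the tissues, with a mean of 7.07% of thyroid tissue 1, and between 2 and 21 reads each. CMPK2, a mitochondrial nucleotide kinase that neighbours RSAD2, stood at 11.2 to 35.7 in the TFCOs, 67.5 and 384 in the thyroids and 255 and 253 in the lungs. XAF1, a promoter of cell death, stood at 7.03 to 22.4 in the TFCOs, 37 and 371 in the thyroids and 349 and 366 in the lungs. For both, every TFCO was under thyroid tissue 1, and thyroid tissue 2 was above both lungs.

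BST2, or tetherin, which holds budding virions at the cell surface, read 12.6 and 1.04 in early and late mThy14, 8.91 and 5.59 in early and late mThy16, 5.44 and 690 in thyroid tissue 1 and 2, and 1108 and 932 in lung tissue 1 and 2. The 5 libraries of the first set and the 3 of the second did not overlap, and the TFCO mean equalled 101% of thyroid tissue 1. EIF2AK2, the kinase PKR, which stops translation on double-stranded RNA, had the same shape at 39.4, 36.6, 38.5 and 53.7 in the TFCOs (early mThy14, early mThy16, late mThy14, late mThy16), 33.7 and 598 in the thyroids and 454 and 446 in the lungs. All 4 TFCOs were above thyroid tissue 1 for EIF2AK2, the lowest of them at 36.6 against 33.7. The exons of EIF2AK2 overlap those of Gm26637 and n-R5s29 on the other strand.

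ADAR, which edits double-stranded RNA and has a promoter that works without interferon, read 669, 751, 706 and 620 in the TFCOs (early mThy14, early mThy16, late mThy14, late mThy16), 702 and 733 in the thyroids and 570 and 715 in the lungs. The 8 values spanned 570 to 751, with TFCOs, thyroid and lung overlapping. LGALS3BP, a secreted glycoprotein that binds galectins, read 256, 433, 186 and 405 in the TFCOs (early mThy14, early mThy16, late mThy14, late mThy16), 2218 and 2452 in the thyroids and 1505 and 1640 in the lungs. The TFCOs were under all tissues, and here the thyroid tissues of the 2 sets stood close together.

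OAS2 and OAS3 make the oligoadenylates that activate RNase L. OAS2 stood at 13.9 to 26 in the TFCOs, 7.62 and 60.8 in the thyroids and 37.7 and 109 in the lungs, with every TFCO above thyroid tissue 1. OAS3 went the other way across the sets, at 49.2, 33.7, 33.3 and 74.9 in the TFCOs (early mThy14, early mThy16, late mThy14, late mThy16), 90.4 and 14.8 in the thyroids and 31.8 and 29.7 in the lungs. It was the 1 gene of the 41 with all TFCOs above both lungs, and thyroid tissue 1 was the highest of all 8 libraries. The GTPases MX1 (0 to 23.9 in TFCOs) and MX2 (4.16 to 36.5) were low in all libraries, with no value over 50.7; C57BL/6 mice are known to carry a defective Mx1. The symbol MX2 had no protein-coding gene of the same letters in the mouse annotation used.

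IFI44 stood at 12.9 to 55.9 in the TFCOs, 35.9 and 257 in the thyroids and 126 and 204 in the lungs. GBP2, a GTPase that attacks the membranes around intracellular microbes, stood at 37.9 to 135 in the TFCOs, 62.1 and 359 in the thyroids and 1051 and 1050 in the lungs. IFI35 stood at 58.4 to 175 in the TFCOs, 188 and 545 in the thyroids and 721 and 617 in the lungs. GBP2 and IFI44 overlapped between TFCOs and thyroid tissue 1, and IFI35 was lower in all 4 TFCOs.

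Of the sensors, IFIH1 (MDA5), which detects long double-stranded RNA, read 191, 182, 197 and 174 in the TFCOs (early mThy14, early mThy16, late mThy14, late mThy16), 396 and 506 in the thyroids and 578 and 570 in the lungs. The TFCO values were tight and under all 4 tissues, at 47.1% of thyroid tissue 1. ZBP1, which binds Z-form nucleic acid and starts necroptosis, read 19.7, 6.93, 15.6 and 24.6 in the TFCOs (early mThy14, early mThy16, late mThy14, late mThy16), 102 and 47.9 in the thyroids and 94.7 and 72.8 in the lungs. Like OAS3, and unlike the 39 other genes, it was lower in thyroid tissue 2 than in thyroid tissue 1, and every TFCO was under every tissue.

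Of the transcription factors, STAT2 read 252 and 238 in early and late mThy14, 266 and 300 in early and late mThy16, 288 and 647 in thyroid tissue 1 and 2, and 454 and 872 in lung tissue 1 and 2. The TFCOs lay on both sides of thyroid tissue 1 and under the other 3 tissues. IRF1, which drives class I and immunoproteasome genes, read 223 and 292 in early and late mThy14, 252 and 278 in early and late mThy16, 122 and 513 in thyroid tissue 1 and 2, and 1297 and 1849 in lung tissue 1 and 2. All 4 TFCOs were above thyroid tissue 1, with a mean of 212% of it, and under thyroid tissue 2 and the lungs.

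IRF7, which amplifies type I interferon production, read 162, 152, 158 and 135 in the TFCOs (early mThy14, early mThy16, late mThy14, late mThy16), 162 and 337 in the thyroids and 173 and 222 in the lungs. The TFCOs and thyroid tissue 1 spanned 135 to 162. Its exons overlap those of Phrf1 on the other strand, and the strand setting of the counting is not stated. IRF9, the DNA-binding partner of STAT2, read 16.9 and 8.33 in early and late mThy14, 0.99 and 11.2 in early and late mThy16, 10.9 and 885 in thyroid tissue 1 and 2, and 573 and 811 in lung tissue 1 and 2. The first set had at most 16.9 and the second at least 573. The exons of IRF9 overlap those of Rnf31 on the same strand, so how reads were assigned there is uncertain.

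PARP9 and DTX3L form a complex that modifies histones near interferon genes. PARP9 stood at 111 to 245 in the TFCOs, 125 and 675 in the thyroids and 667 and 545 in the lungs, and DTX3L at 35.1 to 92.1 in the TFCOs, 67.5 and 505 in the thyroids and 372 and 526 in the lungs. PARP14, a mono-ADP-ribosyltransferase, stood at 19.7 to 122 in the TFCOs, 53.3 and 628 in the thyroids and 925 and 991 in the lungs. TFCOs overlapped thyroid tissue 1 for all 3 genes. PARP9 and DTX3L share exon sequence on opposite strands, so their reads may be mixed.

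The immunoproteasome replaces the catalytic subunits of the proteasome and yields peptides suited to class I molecules. PSMB8 read 235 and 231 in early and late mThy14, 141 and 165 in early and late mThy16, 423 and 602 in thyroid tissue 1 and 2, and 1023 and 788 in lung tissue 1 and 2. It was under all tissues in every TFCO, at 44.6% of thyroid tissue 1, and was higher in mThy14 than in mThy16 at both passages. PSMB9 stood at 35.8 to 202 in the TFCOs, 222 and 249 in the thyroids and 544 and 471 in the lungs, with mThy14 (142 and 202) above mThy16 (52.5 and 35.8). PSMB10 stood at 98 to 220 in the TFCOs, 174 and 372 in the thyroids and 905 and 665 in the lungs. The late mThy14 value of PSMB10, 220, exceeded thyroid tissue 1. The constitutive counterparts PSMB5, PSMB6 and PSMB7 summed to 7725 to 8946 in TFCOs, 7150 and 3766 in thyroid tissue 1 and 2, and 3185 and 2365 in the lungs. The immunoproteasome sum was 291 to 653 in TFCOs, 820 and 1223 in the thyroids and 2472 and 1924 in the lungs, so the 2 sums ordered the groups in opposite directions. For the constitutive sum, thyroid tissue 1 stood nearer to the TFCOs than to thyroid tissue 2. None of the 3 counterparts differed between TFCOs and thyroid (limma, adjusted p under 0.05).

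For class I loading, B2M, the light chain of class I molecules, read 1667 and 1187 in early and late mThy14, 1837 and 2200 in early and late mThy16, 4295 and 9483 in thyroid tissue 1 and 2, and 14588 and 15703 in lung tissue 1 and 2. Every TFCO was under every tissue, though B2M stayed among the most abundant of the 41 genes in TFCOs, at 39.2% of thyroid tissue 1. TAPBP read 3119, 1626, 3517 and 1345 in the TFCOs (early mThy14, early mThy16, late mThy14, late mThy16), 1481 and 3573 in the thyroids and 3785 and 3056 in the lungs. The TFCO values enclosed thyroid tissue 1 and overlapped the lungs, with mThy14 above mThy16 at both passages. TAP1, one chain of the peptide transporter, read 107, 211, 125 and 235 in the TFCOs (early mThy14, early mThy16, late mThy14, late mThy16), 283 and 469 in the thyroids and 551 and 646 in the lungs. The TFCOs were under all tissues, and mThy16 was above mThy14. TAP1 and PSMB9 have overlapping exons on opposite strands, so their reads may be mixed.

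TAP2, the other chain of the same transporter, read 9.84 and 1.04 in early and late mThy14, 1.98 and 2.24 in early and late mThy16, 2.18 and 1033 in thyroid tissue 1 and 2, and 1174 and 1112 in lung tissue 1 and 2. Between 1 and 7 reads were counted in each TFCO and 2 in thyroid tissue 1, while each library of the second set had 1033 normalized counts or more. The exons of TAP2 overlap those of Gm15821 and Gm20496 on the other strand, and how such reads were counted is not stated. TAP1 and TAP2 products work as a pair, and thyroid tissue 1 had 283 of one and 2.18 of the other. NLRC5, the activator of class I genes, read 22.5, 33.7, 14.6 and 26.8 in the TFCOs (early mThy14, early mThy16, late mThy14, late mThy16), 16.3 and 65.5 in the thyroids and 77.9 and 232 in the lungs. TFCOs overlapped thyroid tissue 1 and were under the other tissues. Class I heavy chains were not analysed here.

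In class II presentation, CTSS, or cathepsin S, which trims the invariant chain, read 28.1 and 45.8 in early and late mThy14, 33.7 and 33.5 in early and late mThy16, 618 and 816 in thyroid tissue 1 and 2, and 5002 and 2418 in lung tissue 1 and 2. The 4 TFCO libraries stood close together and the lowest tissue was 618 against 45.8 in the highest of them. CD74, the invariant chain, read 50.6 and 60.4 in early and late mThy14, 383 and 195 in early and late mThy16, 2361 and 8125 in thyroid tissue 1 and 2, and 18246 and 11165 in lung tissue 1 and 2. It was under all tissues in every TFCO, and the mThy16 libraries were above the mThy14 ones. CIITA, the activator of class II genes, read 49.2, 61.4, 29.1 and 54.8 in the TFCOs (early mThy14, early mThy16, late mThy14, late mThy16), 46.8 and 76.5 in the thyroids and 183 and 291 in the lungs. The TFCOs enclosed thyroid tissue 1 for CIITA. Class II chains were not analysed here.

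Only some markers of blood cells moved with CD74 and CTSS. AIF1 did not, at 82.9 to 146 in TFCOs, 136 and 70.1 in the thyroids and 115 and 59.3 in the lungs. ITGAX overlapped between TFCOs and thyroids, at 47.9 to 99.8 in TFCOs against 99.1 and 80.2 in the thyroids. The pan-leukocyte gene PTPRC stood at 0 to 25.7 in TFCOs, 122 and 190 in the thyroids and 1390 and 1170 in the lungs, and the macrophage gene CSF1R at 7.03 to 42.5, 560 and 770, and 2321 and 1441. The 15 leukocyte markers summed to 281 to 1379 in TFCOs, 1514 and 2276 in the thyroids and 11335 and 7134 in the lungs. Of the 15, 3 were lower in TFCOs than in thyroid (limma, adjusted p under 0.05), against 3.05% of all genes. CD14 made up most of the mThy16 sums, at 899 and 978 against 4.22 and 1.04 in mThy14. All 6 stromal markers and 4 of 6 endothelial markers were also lower in TFCOs by the same test. Their median differences from both thyroids were −8.42 and −4.91, and that of the leukocyte markers was −0.83. Against thyroid tissue 1 alone, within the set, the medians were −7.74 (stromal), −3.43 (endothelial) and −0.8 (leukocyte). The part of these cells in the tissue values was not tested, and in bulk samples fewer cells of a type cannot be told apart from less RNA per cell.

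**Figure D3:**
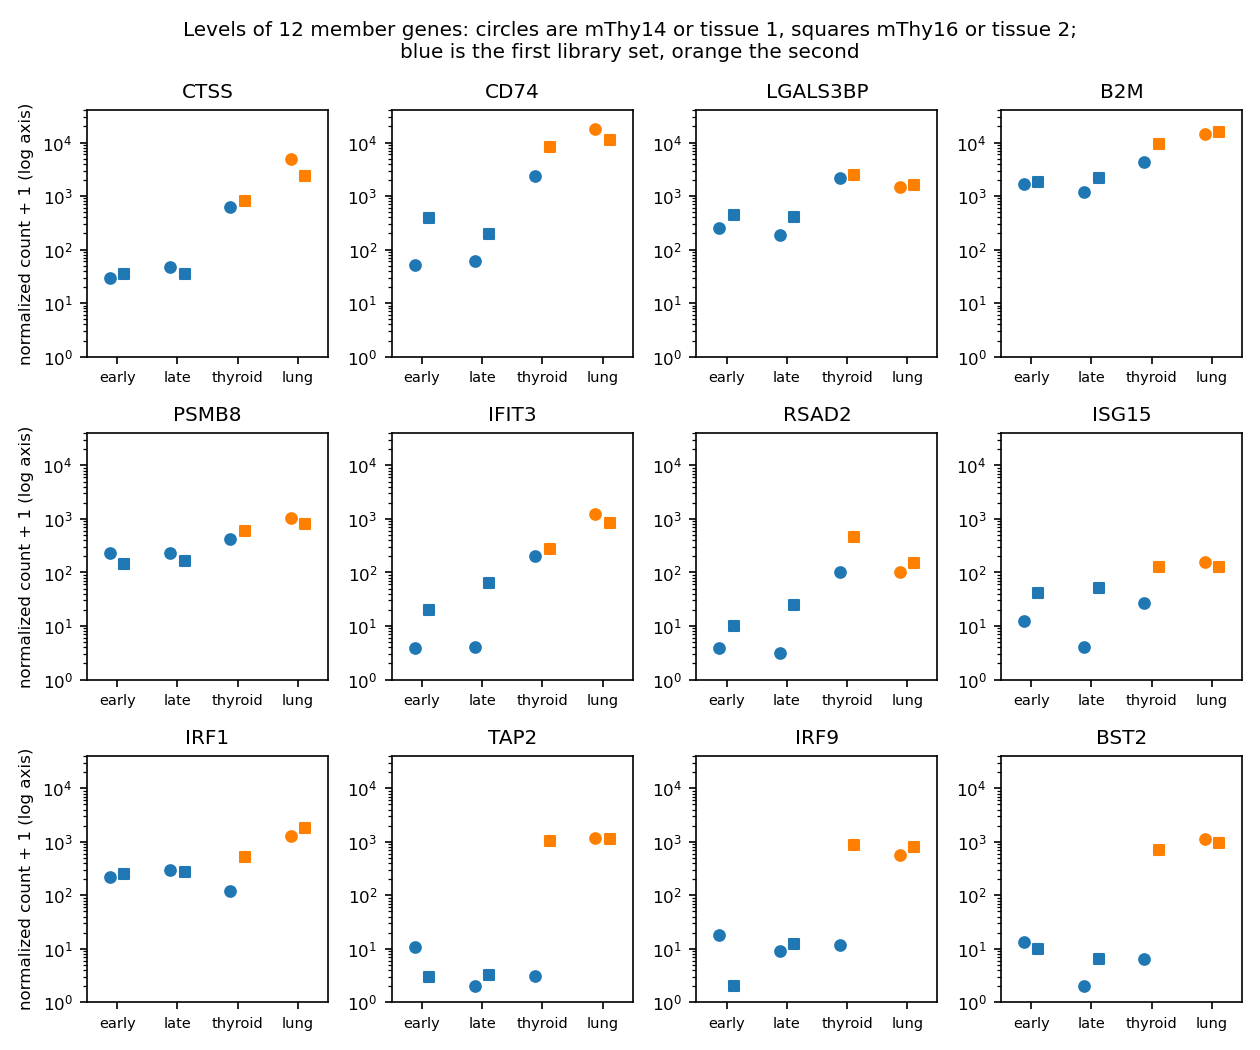
Normalized counts plus 1 on a log axis for 12 of the genes in early TFCOs, late TFCOs, thyroid and lung tissue; circles are mThy14 or tissue 1, squares mThy16 or tissue 2, blue is the first library set and orange the second, and 1 point is 1 library. For CTSS all TFCOs lie at 28.1 to 45.8 under both thyroids, whereas for TAP2, IRF9 and BST2 thyroid tissue 1 lies with the TFCOs.

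The first comparison asked how TFCOs differ from thyroid tissue, with the passages of each line averaged to 1 sample (2 lines against 2 tissues). Of the 41 genes 3 fell and none rose, at an adjusted p under 0.05 over all genes tested (limma on log2 values), against 3.05% of the 14703 genes that fell. CTSS fell by 4.32 (SE 0.46, adjusted p = 0.00688), a 19.9-fold difference. LGALS3BP fell by 2.94 (SE 0.40, adjusted p = 0.0132), and CD74 fell by 5.14 (SE 0.85, adjusted p = 0.0246). The call of CD74 was lost without the mean-variance trend and without lung tissue 1 or lung tissue 2, at the same difference. In all 3 genes, each of the 4 TFCO libraries was under both thyroids. Such separation was seen in 18 of the 41 genes and in 17.3% of all genes, and 19 of the 41 lay under thyroid tissue 1 in all 4 TFCO libraries, against 25.9%. The 19 include IRF7, whose highest TFCO value and thyroid tissue 1 both round to 162. The median difference of the 41 was −1.51, with 39 lower, against a median of 0.05 for all genes.

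Of the other genes followed throughout, none passed the threshold. B2M differed by −1.92 (SE 0.50, adjusted p = 0.0983), PSMB8 by −1.42 (SE 0.41, adjusted p = 0.13) and TAP1 by −1.18 (SE 0.49, adjusted p = 0.261). ISG15 differed by −1.72 (SE 1.16, adjusted p = 0.43) and STAT2 by −0.71 (SE 0.53, adjusted p = 0.469). The remaining regulators lay nearer 0, with IRF7 at −0.62 (SE 0.54, adjusted p = 0.525), NLRC5 at −0.48 (SE 0.99, adjusted p = 0.799), CIITA at −0.35 (SE 0.67, adjusted p = 0.784) and IRF1 at 0.06 (SE 0.66, adjusted p = 0.969). For 17 of the 41 genes the unadjusted p was under 0.05 in limma, as it was for 2741 of the 14703 genes tested. With 2 samples a group, these intervals are wide, and a p above the threshold does not show equal levels.

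With the library set as a term, the comparison rests on thyroid tissue 1. CTSS remained past the threshold, at −4.12 (SE 0.52, adjusted p = 0.0463), as the only one of the 41 genes, against 1.03% of all genes that fell. LGALS3BP then stood at −2.87 (SE 0.46, adjusted p = 0.0634) and CD74 at −4.25 (SE 0.96, adjusted p = 0.117). The median of the 41 was −0.58. Without thyroid tissue 1 the median of the 41 was −2.20, and without thyroid tissue 2 it was −0.58. Without lung tissue 1 or lung tissue 2, which share in the estimate of the spread, CTSS and LGALS3BP passed and CD74 did not.

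**Figure D4:**
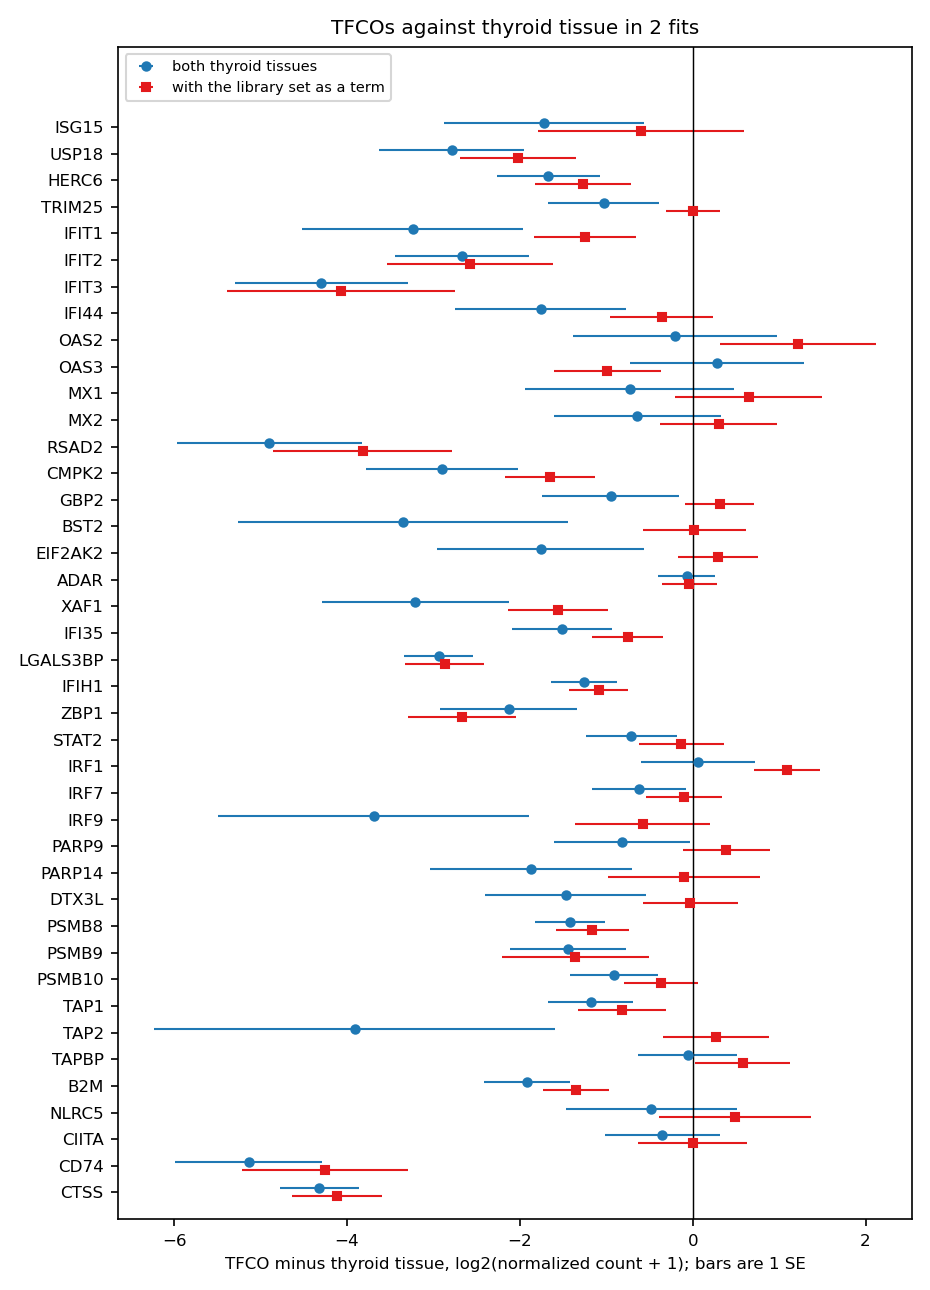
Difference of TFCOs from thyroid tissue in log2(normalized count + 1) for the 41 genes, with bars of 1 SE: circles use both thyroid tissues, and squares add the library set as a term. BST2, TAP2, IRF9 and EIF2AK2 move from −1.76 or lower to between −0.58 and 0.29, while CTSS, CD74, LGALS3BP and IFIT3 stay at −2.87 or lower.

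Against lung tissue, the unrelated tissue of the study, 25 of the 41 genes were lower in TFCOs and none higher (limma, adjusted p under 0.05), against 13.5% of all genes that were lower. In 36 of the 41 every TFCO was under both lungs, against 33.3% of all genes. The median difference was −2.54. All TFCOs are in the first library set and both lungs in the second, so group and set coincide in this comparison. The 2 thyroid tissues share in the estimate of the spread, so the SEs here also hold the difference between them. How many genes passed depended strongly on which library was left out, as given further below. With lung tissue 1 left out the median was −2.81, with lung tissue 2 left out −2.56, and with either thyroid tissue left out −2.54.

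All 3 class II genes were lower in TFCOs than in lung, with CD74 at −6.84 (SE 0.85, adjusted p = 0.00395), CTSS at −6.61 (SE 0.46, adjusted p = 0.000546) and CIITA at −2.28 (SE 0.67, adjusted p = 0.0491). All 3 immunoproteasome subunits were lower too, with PSMB8 at −2.25 (SE 0.41, adjusted p = 0.0145), PSMB10 at −2.52 (SE 0.51, adjusted p = 0.0186) and PSMB9 at −2.54 (SE 0.67, adjusted p = 0.0388). In class I loading, B2M differed by −3.17 (SE 0.50, adjusted p = 0.00919), TAP1 by −1.89 (SE 0.49, adjusted p = 0.0376) and TAP2 by −8.22 (SE 2.32, adjusted p = 0.0446). NLRC5 at −2.48 (SE 0.99, adjusted p = 0.0983) did not pass.

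Among the effectors, 10 of 17 were lower in TFCOs. IFIT3 differed by −6.42 (SE 1.00, adjusted p = 0.00859), IFIT1 by −5.82 (SE 1.28, adjusted p = 0.0239) and IFIT2 by −3.81 (SE 0.77, adjusted p = 0.019). BST2 differed by −7.28 (SE 1.91, adjusted p = 0.0378), XAF1 by −4.80 (SE 1.08, adjusted p = 0.0258) and RSAD2 by −4.09 (SE 1.07, adjusted p = 0.0378). The other 4 were GBP2 at −3.75 (SE 0.79, adjusted p = 0.0212), CMPK2 at −3.55 (SE 0.88, adjusted p = 0.0336), IFI35 at −2.57 (SE 0.58, adjusted p = 0.0258) and LGALS3BP at −2.37 (SE 0.40, adjusted p = 0.0109).

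From the remaining roles, USP18 differed by −4.95 (SE 0.84, adjusted p = 0.0113) and HERC6 by −2.18 (SE 0.60, adjusted p = 0.0419), and IFIH1 was the 1 sensor that passed, at −1.62 (SE 0.38, adjusted p = 0.028). Of the regulators, IRF9 at −6.42 (SE 1.80, adjusted p = 0.0442), PARP14 at −4.24 (SE 1.17, adjusted p = 0.0426) and IRF1 at −2.57 (SE 0.66, adjusted p = 0.036) were lower. ISG15 at −2.97 (SE 1.16, adjusted p = 0.0932), STAT2 at −1.25 (SE 0.53, adjusted p = 0.111) and IRF7 at −0.37 (SE 0.54, adjusted p = 0.614) did not pass. A term for the library set takes the set difference from thyroid tissue 1 and thyroid tissue 2 alone. It assumes the same set difference in TFCOs and lung, which cannot be tested here because group and set coincide. With the library set as a term, CTSS alone passed, at −6.21 (SE 0.73, adjusted p = 0.0454), against 0.986% of all genes that fell, and the median of the 41 was −1.06. In that fit TAP2 stood at 0.12 (SE 0.86, adjusted p = 0.967) and B2M at −2.03 (SE 0.54, adjusted p = 0.142).

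Between the tissues themselves, CTSS was the 1 gene of the 41 that differed, with a thyroid minus lung difference of −2.29 (SE 0.46, adjusted p = 0.0341) in limma, against 3.16% of all genes that were lower. Its values were 618 and 816 in the thyroids and 5002 and 2418 in the lungs. Thyroid tissue 2, which shares the library set of the lungs, was under both lungs in 22 of the 41 genes, against 38.8% of all genes, and the median of the 41 was −0.18 for thyroid tissue 2 against the lung mean. In the fit with both thyroids that median was −1.14. That median was −2.15 without thyroid tissue 2, −1.07 without lung tissue 1 and −1.19 without lung tissue 2. Here too the calls depended on which library was left out, as given further below.

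The genes followed throughout did not pass between thyroid and lung. IRF1 differed by −2.62 (SE 0.66, adjusted p = 0.0659), CIITA by −1.93 (SE 0.67, adjusted p = 0.144) and NLRC5 by −2.00 (SE 0.99, adjusted p = 0.287). CD74 differed by −1.70 (SE 0.85, adjusted p = 0.29), B2M by −1.25 (SE 0.50, adjusted p = 0.2) and ISG15 by −1.25 (SE 1.16, adjusted p = 0.539). PSMB8 stood at −0.83 (SE 0.41, adjusted p = 0.291), TAP1 at −0.71 (SE 0.49, adjusted p = 0.423), STAT2 at −0.54 (SE 0.53, adjusted p = 0.559) and IRF7 at 0.25 (SE 0.54, adjusted p = 0.793). Within the second set, thyroid tissue 2 was higher than both lungs for RSAD2, at 456 against 102 and 148, and lower for IRF1, at 513 against 1297 and 1849.

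The passage comparison asked whether these genes changed during culture, and the 4 TFCO libraries it compares belong to 1 library set. Its SEs come from all 8 libraries, with tissues of both sets, so they are not the spread between passages alone. None of the 41 genes passed between late and early TFCOs in limma (adjusted p under 0.05), and neither did any of the 14703 genes (0.0%). At an unadjusted p under 0.05 there were 166 genes in all and 1 of the 41, USP18, with an unadjusted p of 0.0183 in limma. USP18 rested on 2 reads in each early library against 14 and 26 reads in the late ones, and it was higher in late TFCOs of both lines. The median difference of the 41 was 0.11.

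For the genes followed throughout, the late minus early difference was −0.63 (SE 1.35, adjusted p = 1) for ISG15, −0.36 (SE 0.99, adjusted p = 1) for CD74 and −0.46 (SE 0.99, adjusted p = 1) for NLRC5. It was −0.45 (SE 0.70, adjusted p = 1) for CIITA and 0.27 (SE 0.62, adjusted p = 1) for IRF1. The differences of TAP1 at 0.19 (SE 0.54, adjusted p = 1), B2M at −0.12 (SE 0.48, adjusted p = 1), PSMB8 at 0.11 (SE 0.44, adjusted p = 1), IRF7 at −0.10 (SE 0.52, adjusted p = 1) and STAT2 at 0.05 (SE 0.51, adjusted p = 1) were smaller than their SE. For ISG15, CD74, NLRC5, CIITA and IRF1 the difference was also smaller than its SE. Line by line, the median late minus early difference was 0.08 in mThy14 and 0.23 in mThy16.

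The 2 lines differed for some of the genes at both passages. Both mThy16 libraries were above both mThy14 libraries in 14 of the 41 genes (34.1%), against 26.4% of all genes, and under them in 6 (14.6%), against 29.1%. Separation by line was common among all genes and no more frequent among the 41. Those above included IFIT3 (mean difference 3.18), ISG15 (2.67), CD74 (2.28), IFIT2 (2.19) and RSAD2 (2.18). Those under included PSMB9 (−1.94), TAPBP (−1.16) and PSMB8 (−0.61). The early and late library of a line are not independent, so no test was made of 1 line against 1 line. CD14 moved with the first group of genes, as given above, and its part was not tested.

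Further genes of the pathway were taken as lists, to be read against the 20.3% of all genes that followed the library set and the 3.05% and 13.5% that were lower in TFCOs than in thyroid and in lung. Of 12 genes for receptors, kinases and other signalling proteins, none differed between TFCOs and thyroid (limma, adjusted p under 0.05) and 5 were lower than in lung, and 6 followed the set. JAK1 was at 2710 to 3285 in TFCOs, 3574 and 2451 in the thyroids and 2780 and 2942 in the lungs. IFNAR2, a chain of the type I receptor, was at 0 to 5.2 in TFCOs and 1.09 in thyroid tissue 1, but 579 to 661 in the second set. Of 13 genes of nucleic acid sensing, none differed from thyroid, 2 were lower than in lung, a share near that of all genes, and 5 followed the set. Of 32 other interferon-induced effectors, 1 was lower than in thyroid and 12 than in lung, and 20 followed the set. Of 10 other class I pathway genes none differed in either comparison (limma, adjusted p under 0.05) and 2 followed the set, a share near that of all genes, and their median difference between the thyroid tissues was −0.05. Of 6 other class II pathway genes none differed from thyroid, 4 were lower than in lung and 5 followed the set.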

How the data were processed

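RNA was sequenced from 8 mouse libraries: early and late TFCOs of 2 lines, 2 thyroid tissues and 2 lung tissues. The authors deposited normalized counts, a signal per gene equal to the read count divided by 1 size factor per library. According to the methods, the authors used polyA selection with a stranded kit, paired-end sequencing, alignment to the mouse genome and DESeq2; the labels describe an adapted CEL-Seq protocol, and the submitters' processing notes list BWA 0.6.2-r126, mm10 and hg38 without roles. The counting tool, its strand setting and the annotation are not given in the sources used here. Every deposited value was a whole multiple of the smallest step of its library (100% of values, within 0.01 reads), which gave the reads per gene.

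Values were tested as log2(normalized count + 1) with limma 3.58.1 in R 4.3.3 (mean-variance trend, Benjamini-Hochberg over the 14703 genes with 10 or more normalized counts in 2 or more libraries, threshold 0.05). For 3 comparisons early and late libraries of each line were averaged, giving 6 samples in a joint fit with a shared estimate of the spread. Passage was tested over all 8 libraries. With 2 samples a group an exact permutation test cannot give a two-sided p below 0.333, so none was made. The fits were run on simulated counts with known changes. Those libraries were drawn independently, without a shared line or a library set, so the run does not test how the fits handle either. The early and late library of a TFCO line pair by line (correlation of deviations 0.477). Replicates were biological according to the series' design, and depth of 9755081 to 16904865 reads sets the counting error only. Of the table's symbols, 15883 of 16119 matched GENCODE M21 (GRCm38), as did 40 of the 41 genes.

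All 41 genes could be named with their 8 values. Differences with errors were printed for those past the threshold and for ISG15, STAT2, IRF1, IRF7, PSMB8, TAP1, B2M, NLRC5, CIITA and CD74. Promoters were printed for those of the 10 genes just named, and of the genes past the threshold in TFCOs against thyroid tissue, that hold either motif. Genes, lists and the library sets were chosen with earlier results of these data known. Alternatives were the pseudocount, the filter, normalization, the trend, a replicate block, a term for the library set, separate passages, the TFCO libraries alone and leaving out each library. Results of 1 gene of the wider pathway are not reported here.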

Additional observations from a re-analysis of the deposited data

How the results depend on the processing

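The limits are the 2 samples a group, the low reads of many of the 41 genes in TFCOs, and the library sets. Quantile normalization shifted the median of all genes to 0.17, 0.32 and 0.14 for TFCOs against thyroid, TFCOs against lung and thyroid against lung, and changes are to be read relative to it.

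For TFCOs against thyroid tissue (536 genes and 3 of the 41 called, median −1.51), the count of all genes was 232 with voom on whole reads, an alternative chosen after seeing the data, 1322 with the passages as separate samples and 178 with the library set as a term. Of the 41 genes, 8 were called with separate passages and 1 with the set term. The median was −1.16 with quantile normalization and −0.58 with the set term. Leaving out 1 library gave 143 to 4026 genes, 0 to 22 of the 41 and medians of −2.20 to −0.58, with the lowest counts and the median nearest 0 without thyroid tissue 2, and the opposite extremes without thyroid tissue 1. Without lung tissue 1 or lung tissue 2, 187 and 184 genes and 2 of the 41 were called, CD74 being lost, as it was without the mean-variance trend.

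For TFCOs against lung tissue (3435 genes and 25 of the 41, median −2.54), separate passages gave 6625 genes and the set term 174 genes and 1 of the 41. The median was −2.48 with a pseudocount of 5, −2.18 with quantile normalization, −2.68 with libraries scaled to the same total and −1.06 with the set term. Leaving out 1 library gave 296 to 6981 genes, 2 to 32 of the 41 and medians of −2.81 to −2.47. Only 2 of the 41 were called without lung tissue 1 and 2 without lung tissue 2, and 32 without either thyroid tissue.

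For thyroid against lung tissue (889 genes and 1 of the 41), the count of the 41 was 2 with quantile normalization, 0 without a trend (6 at an unadjusted p under 0.05 in limma), 0 with the set term (3 at an unadjusted p under 0.05) and 2 with the tissue number as a replicate block. The tissue numbers are only numbers (correlation of deviations −0.0726). Leaving out 1 library gave 59 to 4288 genes, 0 to 18 of the 41 and medians of −2.15 to −0.18, the count of 18 without thyroid tissue 2 and 0 without thyroid tissue 1 or either lung.

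For late against early TFCOs, the TFCO line as a replicate block called 0 genes (224 at an unadjusted p under 0.05 in limma) and changed no call. With the TFCO libraries alone 0 genes were called, and 200 genes and 2 of the 41 had an unadjusted p under 0.05 in limma. Leaving out 1 library gave 0 to 2 genes, 0 of the 41 and medians of −0.05 to 0.37.

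Some directions turned; the cause was not tested. Against thyroid, IRF1 was −0.04 without late mThy14 and −0.98 to 1.09 over all libraries left out. NLRC5 was 0.37 with quantile normalization, 0.49 with the set term, and −1.45 to 0.49 over the libraries left out. CIITA was 0.45, 0.0028 and −0.69 to 0.0028 under the same settings. Against lung, IRF7 was 0.47 with quantile normalization and 0.68 with the set term, and TAP2 0.12 with the set term. Between tissues, STAT2 was 0.04 with the set term and −1.12 to 0.04 over the libraries left out, and IRF7 −0.27 to 0.78. Between passages, leaving out 1 library gave ranges for ISG15 of −2.44 to 1.17, STAT2 −0.12 to 0.21, IRF7 −0.21 to 0.02, PSMB8 −0.26 to 0.47, TAP1 −0.30 to 0.68, B2M −0.56 to 0.33, and CD74 −1.81 to 1.09. The planned count models on whole reads were not run.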

Other observations

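Several interferon-induced genes outside the 41 differed between the TFCO lines. The genes given first, all higher in mThy16, were picked with their values in view. IFITM3, a membrane protein that blocks virus entry, stood at 212 and 159 normalized counts in early and late mThy14, 1363 and 1298 in early and late mThy16, 328 and 1122 in thyroid tissue 1 and 2, and 3805 and 3569 in the lungs. Its relative IFITM2 stood at 947 and 913 in mThy14, 6205 and 6808 in mThy16, 1163 and 1205 in the thyroids and 2902 and 2795 in the lungs. For IFITM2 both mThy16 libraries were the highest of all 8. SAMD9L stood at 12.6 and 29.1 in mThy14 and 356 and 467 in mThy16, and RTP4 at 0 and 0 in mThy14 and 36.6 and 20.1 in mThy16. Others on the same list went the other way. PARP10 stood at 174 and 175 in mThy14 and 82.2 and 93.9 in mThy16, and LAP3 at 1857 and 1310 against 1070 and 1026. Over all genes, both mThy16 libraries were above both mThy14 libraries in 26.4% and under them in 29.1%. No test was made of 1 line against the other.

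Each interferon receptor chain on the list was split by library set. IFNAR1 stood at 21.8 to 43.7 in TFCOs and 26.1 in thyroid tissue 1, against 643, 943 and 1063 in the second set. IFNGR1 stood at 14.1 to 33.7 in TFCOs and 71.8 in thyroid tissue 1, against 891, 1877 and 2512. IFNGR2 stood at 10.9 to 52.5 and 37, against 867, 1085 and 778. The kinases JAK2, at 1463 to 2893 in TFCOs and 993 to 3260 in the tissues, and TYK2, at 317 to 399 in TFCOs and 409 to 543 in the tissues, showed no such split.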
